A study of Triticum turgidum subsp. durum with 32 samples.

Results

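Of 37364 wheat leaf loci that passed an expression minimum, 28 (0.0749%) were changed in opposite directions in *phyB*-null and *phyC*-null plants, each mutant being compared with its own wild-type sister line. Of these, 17 were raised in *phyB*-null but reduced in *phyC*-null, and the other 11 had the reverse order. Expression is given as CPM, the reads of a locus per 1000000 counted reads of its library. A locus had to reach a group mean of 1 CPM in the wild type or the null mutant of each of 4 experiments, and the ratio of null to wild type, with 0.05 CPM added to both, had to be at least 2 in both experiments of one mutant and at most 0.5 in both experiments of the other. Loci listed in the tables of the original study were left out, which removed no locus that met these terms, as were loci of chromosome 1B between positions 121357866 and 207386741, which removed 1. The whole table holds 150754 transcribed loci. By the same thresholds, 254 loci changed alike, 208 upwards and 46 downwards. The 28 loci were chosen by the ratios of null to wild type, which are therefore given as a description, without a test.

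The data are RNA-seq counts from the third leaf of 4-week-old plants of the tetraploid durum wheat Kronos, sampled 4 h after the lights came on in a 16 h light and 8 h dark cycle at 20 °C by day and 18 °C by night. The *phyB*-null line carries premature stop codons in both homoeologous copies of *PHYB*, and the *phyC*-null line lacks functional copies of *PHYC*. All plants derive from mutagenised Kronos, and the controls of each mutant were wild-type plants of its own sister line, recovered after crossing the mutants back to Kronos. Each mutant was compared with its control in 2 experiments of 4 biological replicates per genotype, which gives 8 groups and 32 libraries. The *PHYB* and *PHYC* experiments were run separately, both *PHYB* experiments in 1 growth chamber and the *PHYC* experiments in chambers with different ballasts, so that a difference between a *PHYB* and a *PHYC* line cannot be told apart from a difference between runs, and sister lines may differ from their mutant at other positions in the genome.

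Phytochromes are the red and far-red light receptors of plants. After absorbing red light they move to the nucleus, bind transcription factors and thereby alter the transcription of genes for growth and flowering. *PHYB* and *PHYC* proteins act in part as pairs with each other, and in temperate cereals both promote flowering under long days.

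Library totals lay between 15961572 and 47695062 counted reads, so that 1 read was worth 0.021 to 0.0627 CPM. The photosystem II protein W locus Traes_1BL_3727B0AB8, a part of the photosynthetic apparatus of green leaf, was read at 12.8 to 86.8 CPM in the 32 libraries. Of the 5 photosynthesis loci summed below, only this locus was lower in *phyB*-null than in its wild type. Its group means were 14.3 and 15.9 CPM there, against 28.7 and 20.5 CPM in the wild type of *PHYB* experiments 1 and 2. The summed level of 5 photosynthesis loci was 44.5 to 51.7 CPM in the *PHYB* wild type of experiment 1 and 3553 to 5380 CPM in *phyB*-null, of which most came from copies of the photosystem II 10 kDa polypeptide. In experiment 2 it was 201 to 818.9 CPM in the *PHYB* wild type and 4516 to 8145 CPM in *phyB*-null, so that the wild type itself differed between experiments. In the *PHYC* line it lay between 51.2 and 91.6 CPM in both genotypes, except in *phyC*-null of experiment 2, where it reached 279.6 CPM, and the part of this shift in the results below was not tested. The 2 loci annotated for other tissues, an endosperm transfer cell protein and a pollen extensin-like protein, summed to 8.96 to 38.3 CPM and lay lower in *phyB*-null (at most 13.6 CPM) than in either wild type (at least 14.8 CPM). The *PHYB-A* locus Traes_4AS_1F3163292 kept 6.77 to 8.01 CPM in *phyB*-null against 11.3 to 16.9 CPM in its wild type, but a stop codon need not remove a transcript, so that the level does not check the genotype. As whole leaves were used, fewer cells of a type and less RNA per cell cannot be told apart.

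The 28 loci have few annotations. The annotation gives 1 interval for each locus on the draft wheat assembly IWGSC v2.2, with no exons, introns or untranslated regions, and 11 of the 28 loci (39.3%) carry a gene model name beginning with Traes, against 69.6% of the 37364 loci. The remaining loci are contigs assembled from wheat transcripts. Of the 28 loci, 14 (50%) lie on scaffolds that are assigned to a chromosome arm but not placed on it, against 31% of all loci over the minimum. Their median length was 1408 bp, with a range of 124 to 6254 bp, against a median of 3183 bp.

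In *phyB*-null, 16 of the 28 loci had the larger change in both experiments, and in *phyC*-null 9. The median size of the log2 ratio was 3.50 and 3.20 in *PHYB* experiments 1 and 2, and 3.10 and 2.56 in the *PHYC* experiments. Sizes ran from the threshold up to 8.69 in *phyB*-null and 6.73 in *phyC*-null. CPM values were not further scaled, and over all 37364 loci the median log2 ratio was 0.28 and 0.21 in the *PHYB* experiments and 0.32 and 0.08 in the *PHYC* experiments, where median-of-ratios scaling brought it to between -0.04 and 0.00. No log2 ratio of the 28 loci changed direction under that scaling.

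**Figure D1:**
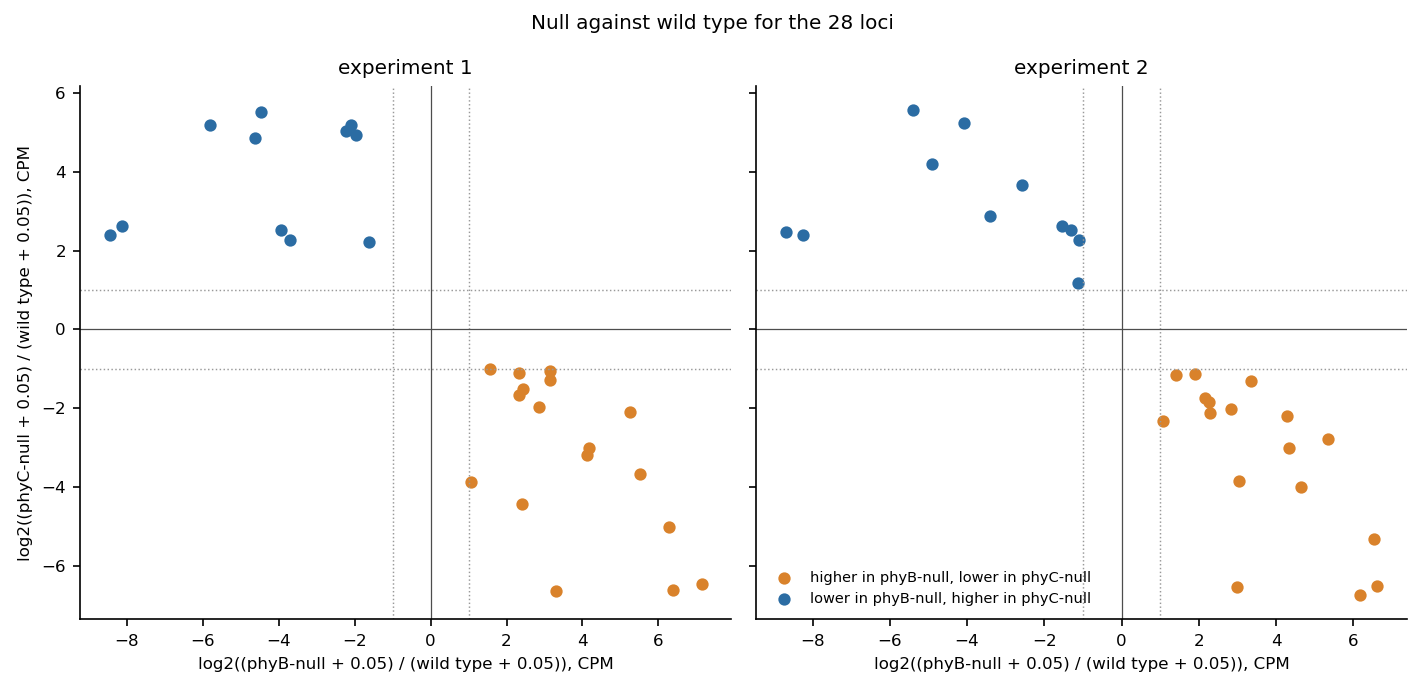
Log2 ratio of the group means of null and wild type (CPM + 0.05) in *phyB*-null (horizontal axis) and *phyC*-null (vertical axis) for the 28 loci, 1 point per locus and 1 panel per experiment, with dotted lines at the 2-fold threshold. All points lie in the upper left or lower right quadrant because the rule chose them so, and the sizes of the log2 ratios run up to 8.69 in *phyB*-null and 6.73 in *phyC*-null.

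Overlap between null and wild-type libraries was counted for each experiment. Of the 17 loci higher in *phyB*-null, all 17 had every *phyB*-null library above every wild-type library in *PHYB* experiment 1, as did 31.1% of all loci over the minimum, and all 17 in experiment 2 (27% of all loci). All *phyC*-null libraries lay below all wild-type libraries at 15 of the 17 in *PHYC* experiment 1 (2.64% of all loci) and at 17 in experiment 2 (3.65%). Of the 11 loci lower in *phyB*-null, 10 and 6 did not overlap in *PHYB* experiments 1 and 2 (8.87% and 9.17% of all loci), and 11 and 10 did not overlap in *PHYC* experiments 1 and 2 (28.7% and 5.96%). These contrasts chose the loci, and no more is read from the counts.

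Whether the opposite changes would recur was examined with loci chosen in 1 experiment of each mutant and read in the other, which the choice had not used. The rule applied to experiment 1 alone gave 131 loci, 55 higher and 76 lower in *phyB*-null. In experiment 2, 33 of them (25.2%) again changed at least 2-fold in the same opposite directions, where 0.242% of 38490 loci did so in either direction. The repeats were not asked to reach 1 CPM again, as the 38490 loci were. With that minimum only the 28 loci repeat, here and in the reverse choice below. None of the 131 was reversed by that threshold, and 87 kept both signs. Experiment 2 alone gave 93 loci, of which 32 (34.4%) repeated by fold in experiment 1 against 0.333% of 39282 loci, with none reversed and 70 of the same signs. Most loci chosen in 1 experiment thus missed the fold threshold in the other.

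The same loci were tested by edgeR's quasi-likelihood test on the raw counts of the experiment not used for the choice, at a Benjamini-Hochberg adjusted P of 0.01 over all loci tested. Of the 131 loci chosen in experiment 1, 20 (15.3%) were called in both mutants in the chosen directions in experiment 2, against 0.0804% of 73379 loci called in opposite directions there. In the single mutants, 52 were called in *phyB*-null and 28 in *phyC*-null (11.6% and 1.04% of all loci tested there), and 3 were called in a direction other than the chosen one. Of the 93 loci chosen in experiment 2, 23 (24.7%) were called in both mutants in experiment 1, against 0.0791% of 74631 loci, with 54 called in *phyB*-null, 27 in *phyC*-null (9.41% and 1.64% of all loci tested there) and 0 in the other direction. Of the called loci, 19 of 20 and 21 of 23 were among the 28. The rule asked for such changes in both experiments, so this overlap is largely given by the choice. When libraries of the test were left out in turn, the first count ranged from 16 to 23 and the second from 15 to 25, where 15 was reached without replicate 4 of *phyC*-null in experiment 1.

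**Figure D2:**
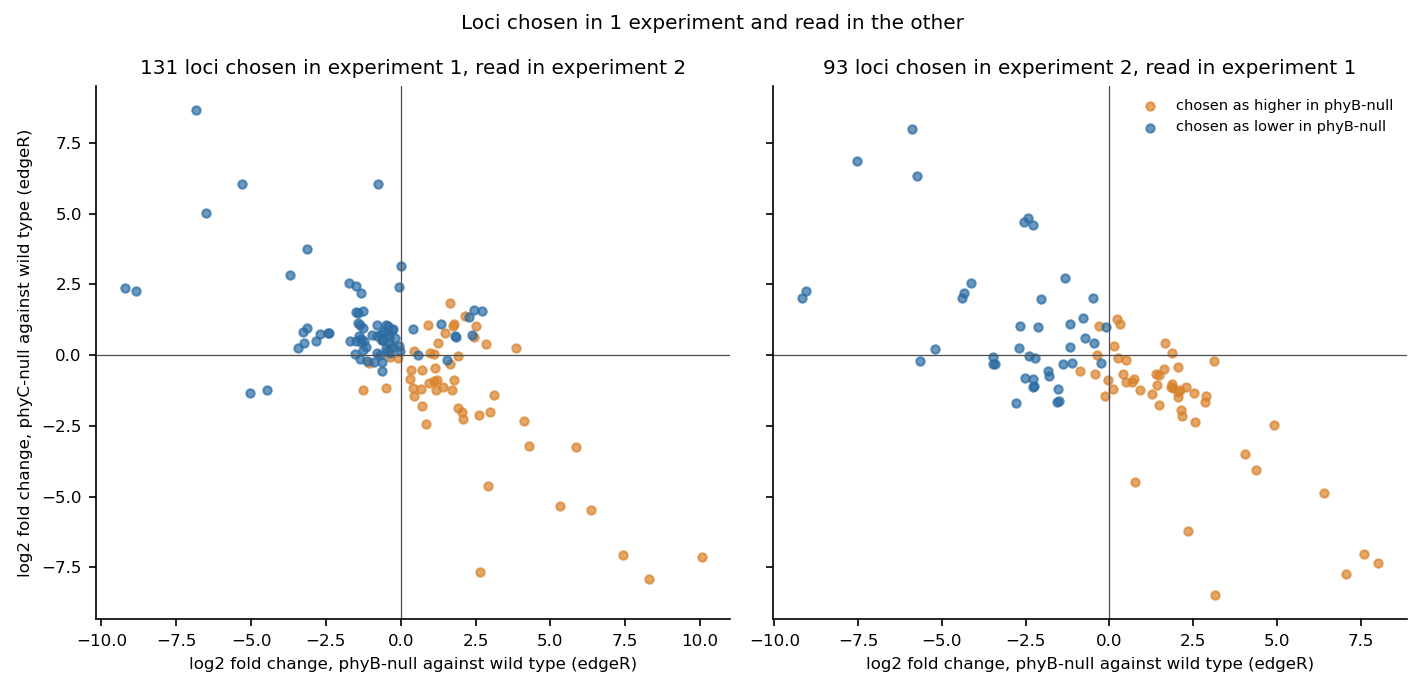
Log2 fold change of null against wild type from edgeR in the experiment not used for choosing, for *phyB*-null (horizontal axis) and *phyC*-null (vertical axis). Each point is 1 of the 131 loci chosen in experiment 1 (left) or of the 93 chosen in experiment 2 (right), coloured by the chosen direction, and points close to the axes are loci that moved little in 1 of the mutants.

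A second pattern concerned the wild types. At 13 of the 28 loci, all 16 libraries of 2 genotypes, 1 null and the other line's wild type, lay above all 16 libraries of the others, 9 among the loci higher in *phyB*-null and 4 among those lower in it. Of all loci over the minimum, 0.0294% had the first order and 0.0161% the second. Among the 17 loci higher in *phyB*-null, the *PHYC* wild type was at least 2-fold over the mean of the *PHYB* wild type at 12 in experiment 1 and 11 in experiment 2 (2.28% and 3.1% of all loci), and at most 0.5 of it at none. Among the 11 loci lower in *phyB*-null, the *PHYC* wild type had at most 0.5 of the *PHYB* wild-type mean at 11 in experiment 1 and 8 in experiment 2 (6.97% and 4.61% of all loci), and at least 2-fold over it at none. The wild-type libraries also entered the rule, so these counts describe the loci and were not tested.

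One of the 13 was Traes_2AS_315383305, a gene model of unknown function on scaffold 5288028 of arm 2AS, bases 6666 to 7997. In *PHYB* experiment 1 the wild-type libraries held 0.0902, 0.0462, 0 and 0.12 CPM and the *phyB*-null libraries 16.7, 10, 15.9 and 21.3 CPM. In *PHYC* experiment 1 the wild-type libraries held 25.7, 22.9, 28.6 and 26.4 CPM and the *phyC*-null libraries 0.147, 0.573, 0.152 and 0.117 CPM. The *PHYC* wild type and *phyB*-null were thus both high, and the *PHYB* wild type and *phyC*-null both near 0. Experiment 2 gave group means of 0.0383 ± 0.015 CPM (SD, n = 4) in the *PHYB* wild type, 8.67 ± 3.2 CPM in *phyB*-null, 16.7 ± 2.2 CPM in the *PHYC* wild type and 0.135 ± 0.12 CPM in *phyC*-null. The lowest of the 16 high libraries was at 4.97 CPM and the highest of the 16 low ones at 0.573 CPM, and the low ones together held 49 reads against 7223.

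Traes_2AS_7E47A2541 on scaffold 5304980 of the same arm (bases 5175 to 5731) had the same order of groups. It was read at 2.22 to 9.18 CPM in the 8 *phyB*-null libraries and at 5.67 to 14.6 CPM in the 8 *PHYC* wild-type libraries. The other 16 libraries reached at most 0.0799 CPM, with 14 reads in all. A transcript contig on scaffold 5289425 of 2AS, td-k51_contig_81155_td-k31_contig_61300, was lower, with *phyB*-null means of 2.17 ± 0.36 and 2.34 ± 0.34 CPM and *PHYC* wild-type means of 1.18 ± 0.5 and 1.08 ± 0.24 CPM (SD, n = 4). Its other libraries did not exceed 0.135 CPM.

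The short contig td-k61_contig_53121, of 124 bp at 2B:897709-897833, had 0 reads in 7 of the 8 *PHYB* wild-type libraries and in 6 of the 8 *phyC*-null libraries. In *phyB*-null it was read at 4.45, 4.01, 4.93 and 4.74 CPM in experiment 1 and at 3.98, 3.12, 5.46 and 5.75 CPM in experiment 2. In the *PHYC* wild type the values were 1.66, 2.14, 1.33 and 2.37 CPM and then 2.56, 2.1, 2.26 and 2.22 CPM. Both high genotypes were clear of the low ones in every library, and *phyB*-null lay above the *PHYC* wild type. All 4 wild-type libraries of *PHYB* experiment 2 were at 0, so that *phyB*-null was at least 199-fold higher there, taking 3 reads over the group as the floor.

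On chromosome 2A, td-k51_contig_36766_td-k45_contig_28292 (2A:264789-266866) was at 3.62 ± 0.7 and 4.46 ± 0.51 CPM in *phyB*-null and at 1.18 ± 0.046 and 1.2 ± 0.11 CPM in the *PHYC* wild type (SD, n = 4). No other library exceeded 0.188 CPM. The same transcript name also stands on a 2BS scaffold, where the group means were 0.691 and 0.802 CPM in *phyB*-null and 0.134 and 0.355 CPM in its wild type, and 0.222 and 0.353 CPM in the *PHYC* wild type and 0.25 and 0.165 CPM in *phyC*-null. This second copy was not called in either mutant in both experiments.

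At td-k25_contig_52710 (5A:111271040-111275402) the *phyB*-null libraries held 6.14, 7.15, 6.5 and 8.54 CPM in experiment 1 and the *PHYB* wild-type libraries 0.271, 0.554, 0.271 and 0.279 CPM. The *PHYC* wild type held 3, 4.52, 2.82 and 3.36 CPM in its experiment 1 and *phyC*-null 0.516, 0.322, 0.342 and 0.351 CPM. Here too the groups were separate, with *PHYC* wild type between *phyB*-null and the low groups. The ratio on the log2 scale was 4.18 and 4.33 in *phyB*-null and -3.01 and -3.00 in *phyC*-null.

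**Figure D3:**
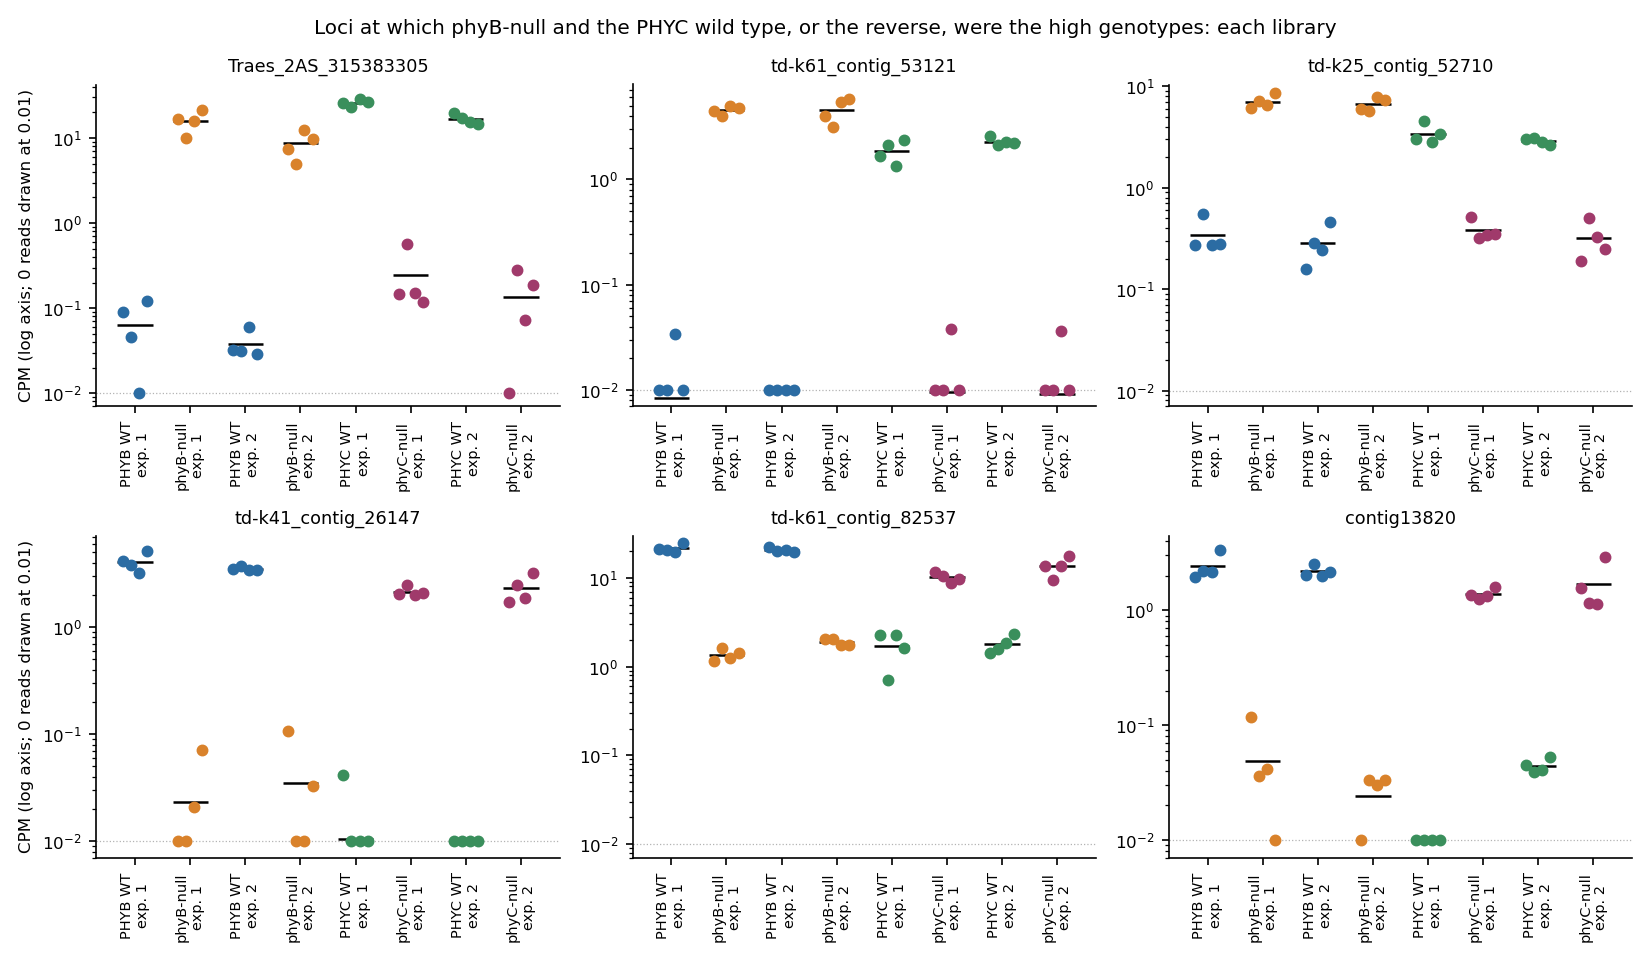
CPM in each library (points, log axis, libraries without reads drawn at 0.01) and group mean (black line) for 6 loci, by genotype and experiment, with 4 libraries per group. At Traes_2AS_315383305, td-k61_contig_53121 and td-k25_contig_52710 *phyB*-null and the *PHYC* wild type are high, and at td-k41_contig_26147, td-k61_contig_82537 and contig13820 the *PHYB* wild type and *phyC*-null are high.

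The reverse order was seen at 4 loci lower in *phyB*-null. At td-k41_contig_26147 (7A:15611505-15612266) the *PHYB* wild-type libraries held 4.1, 3.79, 3.22 and 5.19 CPM in experiment 1 and 3.51, 3.71, 3.4 and 3.41 CPM in experiment 2, and *phyB*-null reached 0.107 CPM at most. *phyC*-null held 2.03, 2.47, 2.02 and 2.06 CPM in experiment 1 and 1.71, 2.45, 1.87 and 3.2 CPM in experiment 2. Its *PHYC* wild type had 1 library with a read in experiment 1 and none in experiment 2, which makes *phyC*-null at least 70.4-fold higher in experiment 2. The *PHYB* wild type and *phyC*-null were therefore the high genotypes.

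contig13820 on scaffold 4321069 of 6BL (bases 2815 to 3197) followed the same order, with *PHYB* wild-type means of 2.41 ± 0.61 and 2.18 ± 0.23 CPM and *phyC*-null means of 1.39 ± 0.15 and 1.68 ± 0.82 CPM (SD, n = 4). In *PHYC* experiment 1 its wild type had 0 reads in all 4 libraries and *phyC*-null was at least 45.7-fold higher. td-k61_contig_82537, on another 6BL scaffold (4263075, bases 1407 to 4521), was not near 0 in any group. It was at 21.6 ± 2.2 and 20.5 ± 1.1 CPM in the *PHYB* wild type, 1.36 ± 0.21 and 1.89 ± 0.17 CPM in *phyB*-null, 1.71 ± 0.73 and 1.79 ± 0.4 CPM in the *PHYC* wild type and 10.1 ± 1.3 and 13.5 ± 3.2 CPM in *phyC*-null. The lowest of its 16 high libraries, at 8.75 CPM, lay above the highest low library, at 2.33 CPM.

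The fourth, td-k51_contig_63989 (1A:223752067-223754903), is annotated as a blue copper protein, a small electron carrier of plant cell walls and membranes. In *phyC*-null it held 4.83, 3.33, 2.7 and 3.66 CPM in experiment 1 and 4.36, 2.36, 3.81 and 3.13 CPM in experiment 2, and in the *PHYC* wild type at most 0.0784 CPM. In the *PHYB* wild type it held 2.84, 1.94, 2.71 and 0.0799 CPM in experiment 1 and 1.92, 3.46, 0.577 and 0.115 CPM in experiment 2, and in *phyB*-null at most 0.0718 CPM. Its separation from the low genotypes rests on a *PHYB* wild-type library at 0.0799 CPM against 0.0784 CPM, which is no more than the worth of a few reads. A second locus of the same transcript on 3B averaged 0.0148 CPM or less in every group.

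Whether wild types differed at such loci was then tested with loci chosen in the other experiment, as the 4 groups of 1 experiment number were fitted together. Of the 131 loci chosen in experiment 1, 56 (42.7%) differed between the *PHYC* and *PHYB* wild types in experiment 2 (edgeR, adjusted P of 0.01), against 10.1% of 85617 loci (5.31% higher in the *PHYC* wild type and 4.77% lower). Among those chosen as higher in *phyB*-null, the *PHYC* wild type was higher at 12 and lower at 4, and among those chosen as lower in *phyB*-null it was higher at 23 and lower at 17. Of the 93 loci chosen in experiment 2, 35 (37.6%) differed between the wild types in experiment 1, against 8.02% of 85487 loci (4.44% higher and 3.58% lower). Here the *PHYC* wild type was higher at 18 and lower at 1 of those chosen as higher in *phyB*-null, and higher at 0 and lower at 16 of those chosen as lower. A wild-type order that mirrors the mutants was thus found in experiment 1 for nearly all called loci. In experiment 2 most called loci of the set chosen as higher had it, but more of the set chosen as lower went against it. The median log2 fold changes between the wild types there were -0.08 in the set chosen as higher and 0.33 in the set chosen as lower, against 0.79 and -1.41 in experiment 1. In the same fits *phyC*-null and *phyB*-null differed at more of these loci, 98 of 131 (74.8%) in experiment 2 and 52 of 93 (55.9%) in experiment 1. The share over all loci was not counted for the nulls. Among loci chosen as higher in *phyB*-null, *phyC*-null was lower at 40 and higher at 0 in experiment 2, and lower at 33 and higher at 1 in experiment 1. Among those chosen as lower it was higher at 56 and lower at 2, and then higher at 17 and lower at 1. Line and run cannot be told apart in either comparison.

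**Figure D4:**
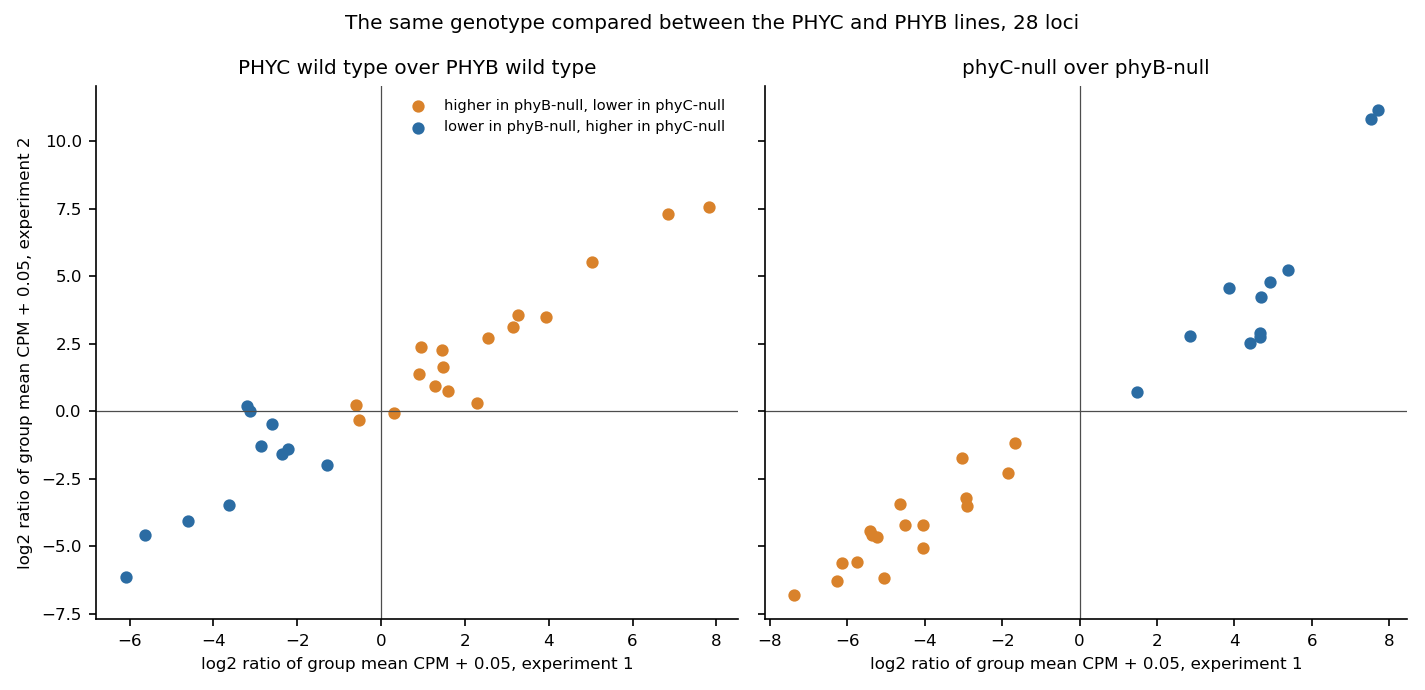
Log2 ratio of the *PHYC* to the *PHYB* line for the wild types (left) and of *phyC*-null to *phyB*-null (right), from group mean CPM + 0.05, with experiment 1 on the horizontal and experiment 2 on the vertical axis and 1 point for each of the 28 loci. Loci higher in *phyB*-null mostly have a higher *PHYC* wild type, at least 2-fold at 12 of 17 in experiment 1, and loci lower in *phyB*-null a lower one, at most 0.5-fold at 11 of 11 in experiment 1.

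The loci were not evenly placed. Of the 17 loci higher in *phyB*-null, 9 (52.9%) lie in the first 3 Mb of 2A or 2B or on scaffolds of 2AS or 2BS, against 2.13% of all loci over the minimum, and none of the 11 lower in *phyB*-null does. This region was chosen after the positions had been seen, and no test was made. In the first 3 Mb of 2A, 12 of 56 loci (21.4%) were at least 2-fold higher in *phyB*-null in both experiments, and in the first 3 Mb of 2B 12 of 39 (30.8%), against 5.64% of all loci. On the scaffolds of 2AS, which hold 4 of the 9, and of 2BS, which hold none, the shares were 4.86% of 350 and 4.87% of 349 loci, below that of all loci. In the 2A and 2B windows 2 and 3 loci (3.57% and 7.69%, against 0.278% of all loci) were at least 2-fold lower in *phyC*-null in both experiments, and they were the 2 and 3 of the 28 loci that lie there. On the scaffolds of 2AS 8 loci (2.29%) and on those of 2BS 1 (0.287%) were so. Those on 2B are 731141 and 1380883 bp apart, and those on 2A 912786 bp.

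Traes_2BS_6762A1AAE (2B:164800-166568) is annotated as benzyl alcohol O-benzoyltransferase-like, an acyltransferase type that makes volatile benzoate esters in other plants. *phyB*-null held 128, 72.1, 134 and 218 CPM in experiment 1 and 30.7, 24.2, 91.5 and 89.3 CPM in experiment 2. Its wild type held 1.98, 4.2, 6.06 and 2.12 CPM and then 1.34, 2.44, 1.28 and 6.79 CPM. Within either experiment number *phyB*-null was the highest group, without overlap. Across experiment numbers, its lowest library in experiment 2 lay under the highest *PHYC* wild-type library of experiment 1. In *PHYC* experiment 1 the wild type was spread from 4.91 to 43.3 CPM and *phyC*-null from 2.03 to 6.62 CPM, so the groups overlapped, and in experiment 2 the wild type lay between 3.06 and 4.55 CPM and *phyC*-null between 0.646 and 1.03 CPM.

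The remaining loci of the group 2 chromosomes were more evenly expressed. td-k31_contig_11110 (2B:2278716-2284134) was at 15.3 ± 0.85 and 15.6 ± 2.9 CPM in *phyB*-null, 1.69 ± 0.32 and 2.14 ± 0.81 CPM in its wild type, 4.84 ± 1.1 and 6.84 ± 0.52 CPM in the *PHYC* wild type and 1.97 ± 0.45 and 1.66 ± 0.36 CPM in *phyC*-null (SD, n = 4). KukriC3280_6 (2A:1179652-1182680) and contig49638 (2AS scaffold 5201908, bases 9934 to 14248) had the same order of groups, with *phyB*-null means of 9.91 and 9.86 CPM and of 8.21 and 8.25 CPM. Their *phyC*-null means, 1.29 and 0.83 CPM and 2.25 and 1.65 CPM, were the lowest or next to the lowest of the 4 genotypes.

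Traes_1AL_7227291BB (1A:206820839-206822324) is annotated as cytochrome P450 94C1-like. In Arabidopsis CYP94C1 oxidises jasmonoyl-isoleucine, the active form of the wound hormone jasmonate, and thereby inactivates it. *phyB*-null held 13, 13, 14 and 15.9 CPM in experiment 1 and 15, 15.6, 16 and 16.2 CPM in experiment 2, and its wild type 1.8 to 4 CPM over both. *phyC*-null held 0.627, 0.43, 0.799 and 0.429 CPM in experiment 1, while its wild type held 4.2, 0.873, 1.29 and 0.54 CPM and overlapped with it. Without the wild-type library at 4.2 CPM the locus would not have met the rule. In experiment 2 *phyC*-null, at 0.627 to 1.02 CPM, lay below all wild-type libraries, at 1.48 to 5.29 CPM. Its wild types lay close together, at a log2 ratio of the *PHYC* to the *PHYB* wild type of -0.54 and -0.31.

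Traes_4AS_C8CB45702, a gene model without annotation on scaffold 5940993 of 4AS (bases 6369 to 10648), was similar in this respect. Its *phyB*-null means of 48.3 ± 2.5 and 45.2 ± 3.5 CPM stood against wild-type means of 6.67 ± 0.84 and 4.37 ± 0.81 CPM, and its *phyC*-null means of 1.09 ± 0.47 and 2.05 ± 0.47 CPM against 4.42 ± 1.3 and 5.18 ± 1.5 CPM (SD, n = 4). td-k31_contig_39753 (7B:238981572-238982113) had *phyC*-null at 0.0761 to 0.516 CPM in experiment 1 and 0.125 to 0.952 CPM in experiment 2, below every wild-type library of either line, and *phyB*-null at 4.58 to 7.25 CPM. Its log2 ratio of 1.07 in both *PHYB* experiments fell to under 1 with median-of-ratios scaling, at 0.76 and 0.85, so that it alone of the 28 no longer met the rule.

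At 3 loci higher in *phyB*-null the same pair of *PHYB* wild-type libraries stood apart from the other wild-type plants. At td-k55_contig_4494_td-k31_contig_5074 (5AS scaffold 1474960, bases 1 to 471) the *PHYB* wild type held 0.0451, 4.3, 0 and 0.0399 CPM in experiment 1 and 0, 0.0635, 5.8 and 0 CPM in experiment 2. The 16 libraries of *phyB*-null and the *PHYC* wild type were at 5.65 to 14.3 CPM and the 8 of *phyC*-null at 0.188 CPM or less. Replicate 2 of experiment 1 and replicate 3 of experiment 2 were thus closer to the high genotypes than to their own group. At td-k21_contig_69048 (4AL scaffold 7174660, bases 9040 to 9443) these libraries held 1.94 and 0.972 CPM, where the other 6 held 0.0319 CPM or less, and at Traes_5AS_5EA9F25E9 (5AS scaffold 1542364, bases 1 to 408) they held 1.94 and 1.37 CPM, where the other 6 held 0.586 CPM or less. Without them the log2 ratio of *phyB*-null to wild type moved from 3.29 and 3.0 to 7.16 and 7.41 at td-k55_contig_4494_td-k31_contig_5074, from 2.40 and 3.04 to 5.82 and 5.16 at td-k21_contig_69048 and from 2.32 and 2.26 to 3.54 and 3.21 at Traes_5AS_5EA9F25E9.

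Split groups of this kind were counted over the 160 pairs of locus and group with a mean of at least 1 CPM. No such count was made over all loci, so whether splits are particular to these loci was not tested. In 9 of the 160 pairs, at 5 loci, a library was at 5% or less of the highest library of its group, and all 9 were *PHYB* wild-type groups. Besides td-k55_contig_4494_td-k31_contig_5074, they included td-k51_contig_63989, both members of a pair on 1A and 1B and isotig24419. The last, on 7BL scaffold 6709676 (bases 5018 to 7438), held 1.49, 3.56, 1.02 and 0.16 CPM in the *PHYB* wild type and 0.0359 to 0.147 CPM in *phyB*-null in experiment 1. In experiment 2 the *PHYB* wild type held 0.351, 2.79, 0.82 and 0.459 CPM and *phyB*-null at most 0.284 CPM, without overlap in either experiment. In *phyC*-null it was at 2.85 to 4.27 CPM in every library. The *PHYC* wild type of experiment 1 was split as well, with 0.0832, 2.34, 0 and 0 CPM, but its mean of 0.606 CPM kept it out of the count, and in experiment 2 the *PHYC* wild type held 0.0448 to 0.468 CPM.

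The pair on 1A and 1B held the highest levels of the 28. Traes_1AL_A785A010E (1A:46279812-46281465) held 0.225, 66.4, 141 and 0.12 CPM in the *PHYB* wild type of experiment 1 and 253, 99.2, 0.243 and 146 CPM in experiment 2. In all 8 *phyB*-null libraries it was at 0.0394 to 0.426 CPM. Of the wild-type libraries, 3 of 8 were therefore within the range of the mutant, and the other 5 were at 66.4 CPM or more. In *PHYC* experiment 1 the wild type held 3.29, 8.09, 4.74 and 7.39 CPM and *phyC*-null 41.1, 27.1, 15.5 and 40.4 CPM. In *PHYC* experiment 2 both were higher, the wild type at 111, 62.1, 233 and 89.9 CPM and *phyC*-null at 795, 528, 840 and 585 CPM.

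Traes_1BL_A4F8B229A, on 1BL scaffold 3753470 (bases 1 to 961), followed it library by library. Its *PHYB* wild-type libraries held 0.767, 33.8, 70.6 and 0.16 CPM and then 134, 50.9, 0.243 and 73.6 CPM, so that the same 3 libraries were low. In the 21 libraries with at least 10 reads at both loci, the reads of the 1A locus were 1.57 to 2.52 times those of the 1B locus (median 1.80). No function is given for either locus, and whether reads of one could have been counted at the other was not tested.

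**Figure D5:**
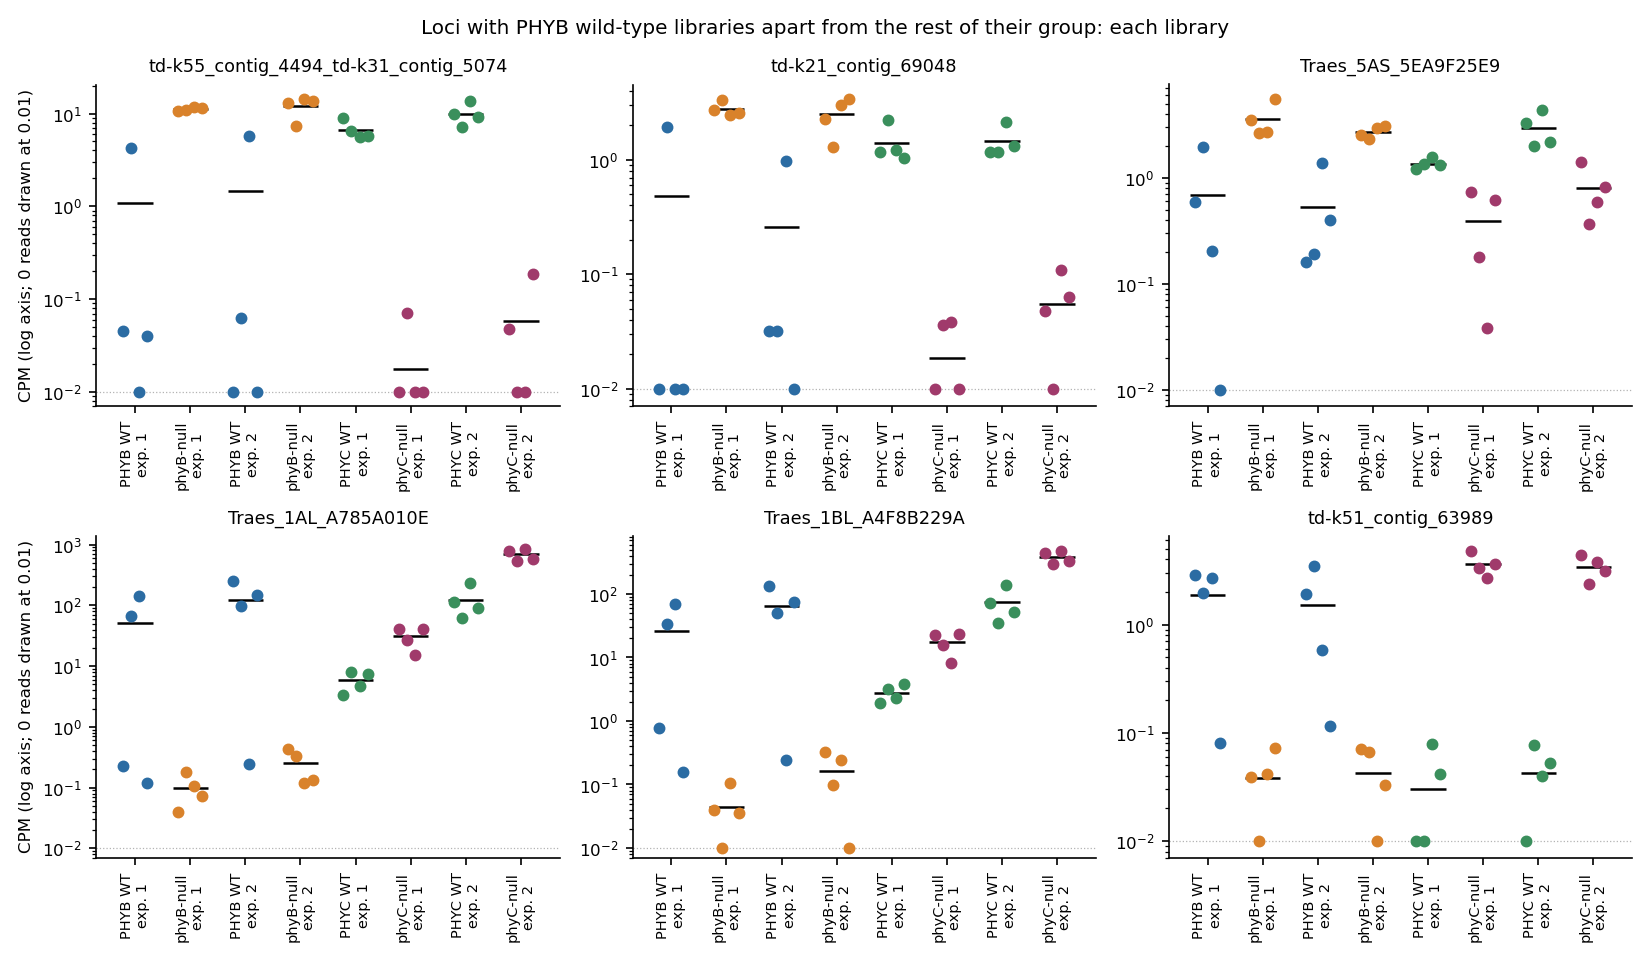
CPM in each library (points, log axis, libraries without reads drawn at 0.01) and group mean (black line) at 6 loci, by genotype and experiment, with 4 libraries per group. In the *PHYB* wild type 1 library of each experiment is high at the first 3 loci, and at the pair on 1A and 1B 2 libraries of experiment 1 and 1 of experiment 2 are under 1 CPM.

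A trio of loci on 3B and 4BL also moved together. td-k63_contig_1255 (3B:751554642-751557028) encodes a hypothetical protein, Traes_4BL_5F08C2BBF (4BL scaffold 7036227, bases 344 to 1167) a member of the metacaspase family, cysteine proteases with a role in plant cell death, and Traes_4BL_80A2BD9E8 (4BL scaffold 6863134, bases 20 to 1126) an unnamed product. At the metacaspase locus *phyC*-null held 79.8, 94.2, 84.9 and 63.7 CPM in experiment 1 against 4.29, 0.674, 3.06 and 0.706 CPM in the wild type. In experiment 2 *phyC*-null held 21, 34.8, 34.1 and 26.8 CPM against 6.99, 9.39, 2.14 and 1.8 CPM. *phyC*-null was above its wild type in every library, with a smaller gap in experiment 2. The *PHYB* wild type held 12.9, 18.6, 14.4 and 19.2 CPM and *phyB*-null 3.11, 5.05, 4.61 and 2.33 CPM in experiment 1, while in experiment 2 the wild type held 8.98, 21.5, 1.91 and 16.9 CPM and overlapped with *phyB*-null at 3.51 to 5.61 CPM.

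The other 2 loci of the trio had *phyC*-null means of 87.9 ± 14 and 62 ± 5.3 CPM in experiment 1 and 27.8 ± 5.5 and 20.9 ± 5.2 CPM in experiment 2 (SD, n = 4), in the order named. Their *PHYB* wild-type libraries of replicate 3 in experiment 2, at 2.07 and 1 CPM, were the lowest of that group, as at the metacaspase locus. Without replicate 2 of the *PHYB* wild type in experiment 2 both 4BL loci would have missed the rule, as would Traes_4BL_80A2BD9E8 without replicate 4.

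Traes_6AS_B24E1F1F5 (6A:30107782-30114036) is annotated as U-box domain-containing protein 35-like, a class of proteins that attach ubiquitin to other proteins. It was low throughout, with 2.92 ± 0.92 and 2.17 ± 0.27 CPM in the *PHYB* wild type, 0.908 ± 0.31 and 0.976 ± 0.089 CPM in *phyB*-null, and on the *PHYC* side 0.527 ± 0.065 and 0.687 ± 0.34 CPM in the control and 2.62 ± 1.3 and 1.63 ± 0.53 CPM in the mutant (SD, n = 4). Its 16 high libraries overlapped with the 16 low ones by little, the lowest high one at 1 CPM and the highest low one at 1.18 CPM.

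Close to the threshold, the last loci inside it were contig19542 (4A:127726557-127727496), with a ratio of 0.499 in *PHYC* experiment 1, and KukriC3280_6 with a smallest change of 2.08-fold among those higher in *phyB*-null, and Traes_4BL_80A2BD9E8 with 2.15-fold and Traes_6AS_B24E1F1F5 with 2.17-fold among those lower. The first loci outside it were td-k31_contig_57641 on 4B (1.92-fold) and td-k51_contig_33506 on 2A (1.91-fold) in the first direction, and Traes_3AL_66C8A1BCE on 3A, whose ratio in *PHYB* experiment 2 was just above 0.5, and td-k51_contig_83337 on 5B (1.99-fold) in the second. Leaving out 1 library at a time removed 9 of the 28 loci from the rule at least once and 19 never. Among the 9 were Traes_1AL_7227291BB and both 4BL loci, described above. Without replicate 2 of the *PHYB* wild type, isotig24419 was lost in either experiment and td-k51_contig_63989 in experiment 2. In *PHYC* experiment 1, contig19542 and contig49638 were lost without replicate 2 of the wild type or replicate 3 of *phyC*-null, and KukriC3280_6 without replicate 3 of the wild type. contig19542 also needed replicate 2 of *phyC*-null in experiment 1, and contig49638 the same replicate in experiment 2. td-k31_contig_39753 was lost without any 1 of 5 libraries of the *PHYB* line, 4 of them wild type. At contig19542 the *phyB*-null and *PHYC* wild-type libraries were at 11.5 CPM or more and the others at 11 CPM or less, so that small ratios went with full separation.

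Between experiments, a contrast the rule did not use, few of the 28 loci differed within a genotype. By edgeR's quasi-likelihood test on the 16 libraries of a line, 1 of the 28 differed between the experiments in the *PHYB* wild type, against 2.56% of 87262 loci, and none in *phyB*-null, against 0.0653%. In *phyB*-null 4 of the 28 had an unadjusted p under 0.05, and DESeq2 called none there either. In the *PHYC* line 3 of the 28 differed in the wild type, against 2.03% of 81574 loci, and 2 in *phyC*-null, against 1.92%. Both shares were larger than those of all loci but rest on few loci. The *PHYB* wild-type locus was Traes_4AS_C8CB45702, at a log2 fold change of -0.65 ± 0.11 (SE, adjusted p = 0.0022 by edgeR).

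The *PHYC* loci were the pair on 1A and 1B and Traes_2BS_6762A1AAE. Traes_1AL_A785A010E was higher in experiment 2 than in experiment 1 by a log2 fold change of 4.30 ± 0.39 in the wild type and 4.63 ± 0.39 in *phyC*-null (SE, adjusted p by edgeR of 8.3e-06 and 1.1e-06). Traes_1BL_A4F8B229A rose by 4.62 ± 0.40 and 4.63 ± 0.39 on the same scale (adjusted p by edgeR of 5.3e-06 and 1.0e-06). Traes_2BS_6762A1AAE fell by 2.41 in the *PHYC* wild type (SE 0.50, adjusted p = 0.0081 by edgeR), while its fold change in *phyC*-null missed the threshold (adjusted p = 0.028 by edgeR). The ratio between *phyC*-null and wild type at the pair stayed similar, at 2.39 and 2.47 on the log2 scale for the 1A locus, although both genotypes moved by a larger amount between experiments. No interaction of genotype and experiment passed an adjusted p of 0.01 at any of the 28 loci by edgeR, where 0.00458% of loci passed in the *PHYB* line and 0.0172% in the *PHYC* line. At an unadjusted p under 0.05 there were 4 in the *PHYB* line and 7 in the *PHYC* line, and DESeq2 called none of the 28 in either line. The interaction compares ratios that the rule required to have the same direction in both experiments. The choice therefore limits it, and no conclusion is drawn.

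Some of the loci next to the 28 were called as well, in small numbers but at larger shares than among all loci. Of 32 neighbouring loci within 100 kb of 19 of the 28, 13 were tested in both *PHYB* experiments, and 3 of these were called in both in the direction of their neighbour and none in the other, where 5.01% of 78478 loci were called in both in 1 direction. Of 12 tested in both *PHYC* experiments, 1 was called in both, in the direction of its neighbour, where 0.472% of 72601 loci were called. This was Traes_2AS_A087099AF, 1042 bp from KukriC3280_6, with log2 fold changes of 0.73 and 1.41 in *phyB*-null and -1.31 and -0.87 in *phyC*-null. The other neighbours called in *phyB*-null were td-k61_contig_64030, 76 bp from td-k25_contig_52710 (log2 fold changes of 1.25 and 1.16), and Traes_6BL_B50C7AC10, 505 bp from contig13820 (-0.92 and -0.91). Whether these called neighbours are genes separate from the loci beside them was not tested.

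Most of a list of 19 flowering and clock loci, a part of those the study names, were called alike in both mutants. Those called alike are among the genes that the study itself gives as regulated by both phytochromes. Its *FT-like*, *FPF-like* and *VIL2* genes, which it gives as changed in *phyB*-null only, are not in the list, so the share called alike depends on this selection. The study chose the listed genes on these libraries, so that their direction is no independent evidence. Of 19 loci of this list, which includes *FT1*, a mobile inducer of flowering, *VRN1*, a meristem identity gene, and *PPD1*, a photoperiod gene, 3 were called higher and 12 lower in *phyB*-null in both experiments (2.13% and 2.89% of all loci), and 4 higher and 12 lower in *phyC*-null (0.245% and 0.227%). In both mutants 13 were called in the same direction and 0 in opposite directions. At 1 of the 19, the clock gene *LHY-B* (Traes_6BL_2F2381640), which was picked out after its values had been seen, the fitted fold changes had opposite signs in both experiments. Its means were 4.84 and 3.0 CPM in the *PHYB* wild type and 1.81 and 1.42 CPM in *phyB*-null, where it was called in both experiments (log2 fold changes of -1.73 and -1.34). On the *PHYC* side they were 0.94 and 2.16 CPM in the control and 2.70 and 3.73 CPM in the mutant, where it was called in neither (1.17 and 0.72, with adjusted p of 0.013 and 0.11 by edgeR). Over all loci tested in the 4 experiments, 25 of 70896 (0.0353%) were called in opposite directions in both mutants by this criterion. Of these, 17 are among the 28, which were chosen on the same contrasts, so the overlap is no separate evidence.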

How the data were processed

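RNA-seq of 32 leaf libraries was used, in 8 groups of 4 given by the sample labels. The authors trimmed 50 bp reads with Scythe and Sickle, mapped them with GSNAP to IWGSC v2.2, dropped those with a mapping quality under 40 and counted the rest on each locus with htseq-count. The deposited values are raw counts, in which strand is not resolved. Positions are as deposited.

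CPM was the count over the column total times 1000000. The members and lists were chosen with earlier results of these data known. Loci to be named were the 8 members of each direction with the largest smallest change, the 4 most abundant, the 4 with the widest gap between wild types, those next to the threshold, and those with an annotation, a close member or a second copy.

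Tests used edgeR 4.0.16 in R 4.3.3 (RLE size factors, quasi-likelihood, loci reaching 3 reads in 2 or more libraries, Benjamini-Hochberg adjusted P of 0.01). The fits were tested on simulated data. Null and wild type were fitted within 8 libraries, experiments and wild types within 16. At the depths of 15961572 to 47695062 reads a level near 1 read (0.021 to 0.0627 CPM) is close to 0. The p-values set a difference against the spread between replicate libraries, which was pooled over the groups of a fit and drawn towards that of other loci. Alternatives were TMM, other filters, DESeq2 1.42.0, a threshold of 0.05, the replicate number as a block, other pseudocounts, minimums and folds, and each library left out. Python 3.11.15 with pandas 2.3.3 and matplotlib 3.10.9 was used. No sequences were analysed here.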

Additional observations from a re-analysis of the deposited data

Results flagged for a closer look

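Among 160 sets of 4 libraries with a mean of at least 1 CPM at 1 of the 28 loci, 11 (6.88%) held a library whose gap to the next exceeded Dixon's 95% limit, where chance gives about 1 in 20. At td-k55_contig_4494_td-k31_contig_5074 the libraries were replicate 2 of the *PHYB* wild type in experiment 1 (4.30 CPM, the next at 0.0451) and replicate 3 in experiment 2 (5.80 CPM, the next at 0.0635). In the *PHYC* wild type, replicate 2 of experiment 1 was high at td-k21_contig_69048 (2.22 CPM) and contig19542 (18.6 CPM), replicate 3 of experiment 2 was high at td-k21_contig_69048 (2.14 CPM) and low at KukriC3280_6 (3.47 CPM), and replicate 2 of experiment 2 was high at contig49638 (4.36 CPM). In *PHYB* experiment 1, wild-type replicate 3 was low at Traes_1AL_7227291BB (1.80 CPM) and *phyB*-null replicate 2 was low at KukriC3280_6 (8.59 CPM). *phyB*-null replicate 2 of experiment 2 was low at Traes_4BL_5F08C2BBF (3.51 CPM), and *phyC*-null replicate 2 of experiment 1 was high at td-k41_contig_26147 (2.47 CPM).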

How the results depend on the processing

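The number of loci changed oppositely, 28, became 18 at a minimum of 2 CPM, 77 at a fold of 1.5 and 17 at a fold of 3, and was 25 to 31 when a library was left out. With group medians it was 28 again, of which 23 were shared, and with RLE or TMM scaling 37, of which 27 were shared. The loci chosen in experiment 1 that repeated by fold numbered 19 at a minimum of 2 CPM in place of 33, and 32 to 36 without a library, and those chosen in experiment 2 numbered 30 to 34. Calls in both mutants were 16 to 23 and 15 to 25 without a library, and calls between the wild types 52 to 62 and 30 to 36. Members that differed between experiments were 2 in the *PHYB* wild type at an adjusted P of 0.05 or by DESeq2 in place of 1. In *phyC*-null they were 5 at 0.05, 5 by DESeq2 and 4 without a filter, in place of 2. Without a library these counts were 1 to 2 in the *PHYB* wild type, 0 to 0 in *phyB*-null, 2 to 3 in the *PHYC* wild type and 2 to 3 in *phyC*-null. All other settings left these counts within 1.5 times their value, and none of 1232 recomputed log2 ratios changed direction. Replicate numbers did not pair the samples (r of the deviations -0.464 to 0.236 over 16 pairs, 5 over 0.1). With the replicate block, 19 and 20 loci were called in both mutants in place of 20 and 23, and 56 and 34 between the wild types. The causes of these changes were not tested. Levels under about 0.1 CPM rest on few reads.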
